A study of Mus musculus with 9 samples.

Results

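Mybl2 encodes B-Myb, a transcription factor of proliferating cells, and the gene was selected on the 2 h ratios described below, in which its introns moved in opposite directions under a kinase inhibitor. All introns listed under the gene name in a table of intron read counts were taken, which gave 12 of 22228 introns. The RNA was polyadenylated and came from the mouse embryonic stem cell line v6.5. Cells were given KH-CB19, which inhibits Clk kinases, in dimethyl sulfoxide (DMSO), or the same volume of DMSO alone. They were harvested at once (KH-CB19 0 h and DMSO 0 h) or 2 h later (KH-CB19 2 h and DMSO 2 h), and 2 independent biological replicates were sequenced in each of the 4 groups. An untreated library of the same line was not analysed here. The values were the authors' means over the 2 libraries of a group, so no spread between replicates can be set beside them. The 2 h contrast chose the gene, so its 2 h values are a description, and the adjusted p-values beside them are the authors' own.

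B-Myb belongs to the Myb family and joins the MuvB core complex, a set of proteins that also forms the repressive DREAM complex with E2F and pocket proteins in resting cells. With MuvB it activates genes for the G2 phase and mitosis, and cyclin A with Cdk2 phosphorylates it in S phase. It is abundant in embryonic stem cells, which cycle fast. Detained introns are introns that remain in polyadenylated transcripts held in the nucleus and are removed after transcription. Clk kinases phosphorylate SR proteins, which guide the spliceosome to exons.

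The gene lies on the plus strand of chromosome 2 in mouse build mm9. The number in an intron's name is the authors' and does not count introns from the start of the transcript. Distances along the gene were therefore compared with the GENCODE M21 transcript Mybl2-201, which has 14 exons and 13 introns. Of the 12 listed introns, 8 had the same length and relative position as an intron of that transcript, 3 were parts of one, and 1 lay inside an exon. Introns 2, 6, 8, 10 and 12 of the table were transcript introns 1 to 5, and introns 15, 18 and 25 were transcript introns 7, 8 and 12. Introns 23 and 24 were the first 143 bp and the last 596 bp of transcript intron 11, and intron 27 was the last 411 bp of transcript intron 13. Transcript introns 6, 9 and 10 had no row in the table and are not analysed here.

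The authors classed 3 of the 12 introns as detained, against 3454 of all 22228. These were intron 15 (chr2:162898651-162900117, 1467 bp), intron 18 (chr2:162900541-162901371, 831 bp) and intron 28 (chr2:162909043-162909489, 447 bp). Introns 15 and 18 are neighbours, separated only by exon 8 of 423 bp. Both lie between coding exons, with 317 codons before intron 15 and 458 before intron 18, and both fall between complete codons. The length of exon 8 is a multiple of 3. The exon junctions that removal of these introns makes are shown because the introns on either side of exon 8 moved apart at 2 h. They are read 5′ to 3′ from GENCODE M21 (GRCm38), with exon 8 in capitals and 20 bases on each side:
exon 7 to exon 8: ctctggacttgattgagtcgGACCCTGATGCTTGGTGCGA
exon 8 to exon 9: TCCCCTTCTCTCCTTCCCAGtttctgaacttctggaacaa

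Intron 28 has another place in the gene model. It lay inside the last exon of Mybl2-201, which is 1523 bp long, and began 141 bp into that exon and 12 bp after the stop codon, in the 3′ UTR. In the GENCODE transcript the stretch does not begin with GT and ends with AG. Reads counted in intron 28 can therefore come from fully spliced Mybl2-201 mRNA as well as from a transcript that retains an intron there, and the table does not separate them. The placement assumes that this end of the gene has the same length in both builds.

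The 0 h groups show how far reads exceeded the authors' expectation. In KH-CB19 all 12 introns had a value, and the authors' deposited table placed 4 above and 5 below expectation at an adjusted p under 0.05. Of all introns with a value in that group, 27.6% were above and 8.93% below. In DMSO 11 introns had a value, where the authors' deposited table placed 4 above and 4 below expectation, against 28.2% and 10.9% of all introns. Intron 10 was marked as low coverage in DMSO and so has no value there. The introns below expectation were the first ones of the gene. Those above it included the 3 detained introns in both groups. Of all detained introns with a value, 3207 of 3423 were above and 0 below in KH-CB19. In DMSO 3408 of 3453 were above and 0 below. The gene was selected on 2 h ratios, which only detained introns have. An excess in its 3 detained introns therefore came with their class, and the percentages of all introns are no measure of it.

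Intron 15 held the most reads of the gene at 0 h. The authors' means were 742.5 observed and 209.5 expected reads in KH-CB19, and 950.5 observed and 264 expected reads in DMSO. By the authors' deposited table, observed over expected had a log2 value of 1.83 in KH-CB19 (adjusted p = 7.99e-13) and 1.85 in DMSO (adjusted p = 2.4e-22). In DMSO 51.0% of detained introns had a lower ratio, so the excess of intron 15 was near the middle of its class.

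Intron 18, across exon 8 from it, had a smaller excess. Its means were 296.5 observed and 153.5 expected reads in KH-CB19, and 385.5 observed and 192.5 expected reads in DMSO. In the authors' deposited table the log2 ratio was 0.95 in KH-CB19 (adjusted p = 6.18e-05) and 1.00 in DMSO (adjusted p = 4.03e-06). In DMSO only 2.26% of detained introns had a lower ratio.

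Intron 28 had the largest ratio of the 12. Its means were 309.5 observed and 46.5 expected reads in KH-CB19, and 421.5 observed and 59 expected reads in DMSO. On the log2 scale this was 2.73 in KH-CB19 (adjusted p = 2.73e-26) and 2.84 in DMSO (adjusted p = 9.56e-21) by the authors' deposited table. Its position in the 3′ UTR of the annotated transcript applies to this excess too, and its part in it was not tested.

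**Figure D1:**
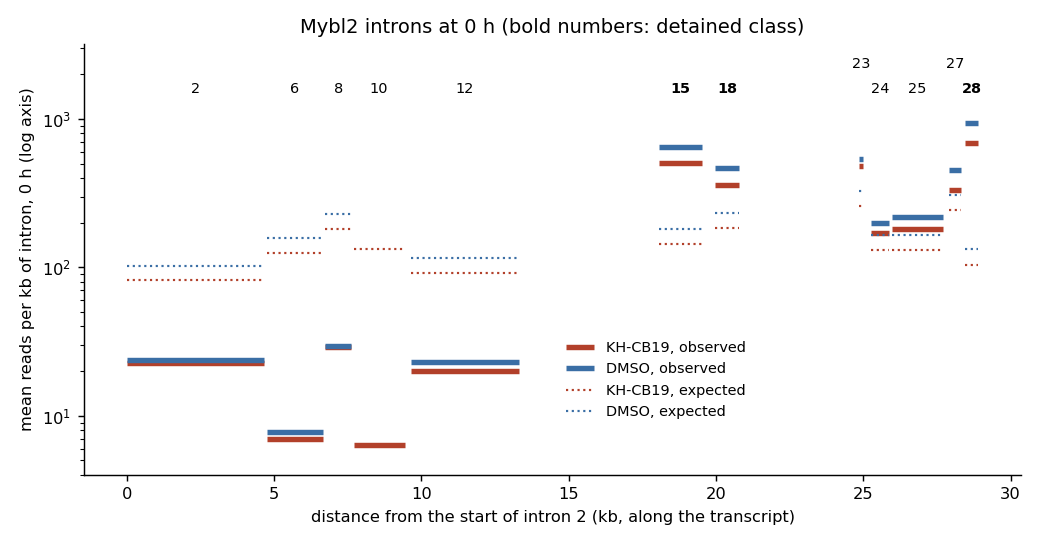
Mean reads per kb of each Mybl2 intron at 0 h (log axis) against distance from the start of intron 2 in kb; thick lines are observed and dotted lines expected means in KH-CB19 (red) and DMSO (blue). The 5 introns at the start of the gene lie between 6.36 and 29.6 observed reads per kb and below their expected lines, and every listed intron from intron 15 on lies above 169 reads per kb.

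Reads were spread unevenly along the gene. Introns 2 to 12, the first 5 of the transcript, held 6.36 to 29.0 observed reads per kb in KH-CB19 and 7.78 to 29.6 in DMSO. Introns 15 to 28, which include the 3 detained ones, held 169 to 692 reads per kb in KH-CB19 and 198 to 943 in DMSO. The ranges of these groups of introns did not overlap. This split was not planned and other genes were not compared in this way, so it is a description. Introns 23 to 27, none of them detained, held 169 to 479 reads per kb in KH-CB19 and 198 to 538 in DMSO. The highest values, 692 and 943, were those of intron 28, whose reads can also come from spliced mRNA. In KH-CB19 the first 5 introns made up 69.5% of the listed intron length and 10.4% of the observed reads.

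The deepest shortfalls were in introns 6 and 10. Intron 6 had 13.5 observed and 242.5 expected reads in KH-CB19, and 15 observed and 305.5 expected reads in DMSO. That is a log2 ratio of −4.17 in KH-CB19 and −4.35 in DMSO in the authors' deposited table. Intron 10 had 11 observed and 229 expected reads in KH-CB19, which is −4.38 on the log2 scale of the authors' deposited table. Introns 2, 8 and 12 had log2 ratios of −1.84, −2.65 and −2.19 in KH-CB19, and of −2.12, −2.95 and −2.32 in DMSO, in the authors' deposited table.

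The 4 introns between intron 18 and intron 28 lay closer to expectation, and of them intron 23 in KH-CB19 and intron 27 in DMSO passed the threshold. Intron 23, of 143 bp, had 68.5 observed and 37 expected reads in KH-CB19 (log2 ratio 0.89, adjusted p = 0.0253), and 77 observed and 47 expected reads in DMSO (0.71, adjusted p = 0.0589), in the authors' deposited table. Intron 24 had 101 observed and 78.5 expected reads in KH-CB19, and 118 observed and 99 expected reads in DMSO. Intron 25 had 311 observed and 227 expected reads in KH-CB19, and 380 observed and 285.5 expected reads in DMSO. Neither passed in either group, with log2 ratios between 0.25 and 0.45 in the authors' deposited table. Intron 27 had 135.5 observed and 100 expected reads in KH-CB19 (log2 ratio 0.44, adjusted p = 0.163), and 185 observed and 125.5 expected reads in DMSO (0.56, adjusted p = 0.0385), in the authors' deposited table. Intron 25 had about as many observed reads as intron 18 in both groups and was not classed as detained; its expected reads were higher. Over all introns the median log2 ratio was 0.60 in KH-CB19 and 0.53 in DMSO. Relative to that median, intron 24 was at −0.23 and −0.28, intron 25 at −0.14 and −0.12, and intron 27 at −0.16 and 0.03, in KH-CB19 and DMSO.

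**Figure D2:**
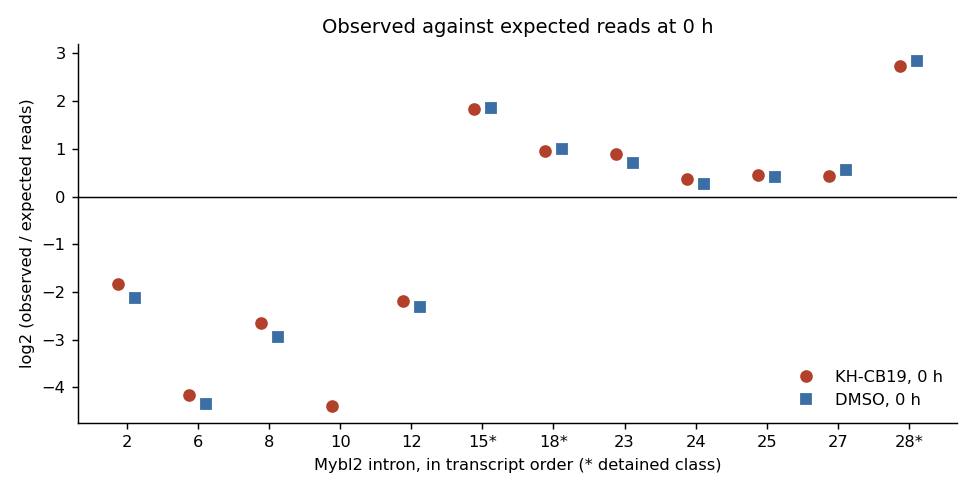
The log2 ratio of observed to expected reads at 0 h for each Mybl2 intron in transcript order, in KH-CB19 (red circles) and DMSO (blue squares), with the detained class starred. Introns 2 to 12 lie below 0 and introns 15 to 28 above it; centred on the median of all introns, introns 24 and 25 fall below 0 in KH-CB19 and DMSO and intron 27 in KH-CB19.

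In KH-CB19, where all 12 introns had a value, the observed and expected reads of the gene summed to nearly the same number, 2193 observed and 2193.5 expected reads. In DMSO, where intron 10 had no value, they were 2752.5 observed and 2473 expected reads over 11 introns. The method behind the expected reads is not stated in the sources used here. Among 1220 genes with at least 3 listed introns, a KH-CB19 value for all of them and at least 100 reads, 280 had sums within 1% of each other, and the ratio of observed to expected sums had a 5th percentile of 0.999. Where the sums are equal, an excess in some introns goes with a shortfall in others, and the ratios of one gene are then not independent of each other.

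At 0 h the excess of the detained introns was close in KH-CB19 and DMSO. Expected reads in KH-CB19 were 0.787 to 0.797 of those in DMSO across the 11 introns with both values. Observed reads in KH-CB19 were 0.781 of those in DMSO in intron 15, 0.769 in intron 18 and 0.734 in intron 28. The log2 ratio of observed to expected in KH-CB19 minus that in DMSO was −0.02 for intron 15, −0.05 for intron 18 and −0.10 for intron 28, and it ran from −0.12 to 0.30 over the 11 introns. The central 90% of the detained introns ran from −0.40 to 0.36 on the same scale. Introns 15 and 18 thus differed by 0.03 at 0 h, and no p for this difference could be computed from group means.

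At 2 h the question was which detained introns changed under Clk inhibition. Of the 3 detained Mybl2 introns 1 rose, its neighbour fell and 1 did not pass in the authors' deposited table. Among all 3454 detained introns 5.47% rose and 4.17% fell. The remaining 9 listed introns of Mybl2 had no 2 h value, since only detained introns did.

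Intron 15 had a mean of 1162 normalised reads in KH-CB19 and 648 in DMSO at 2 h. It was 1.79-fold higher, and the authors' deposited table gave 0.84 on the log2 scale with an adjusted p of 0.00355. Of the detained introns 92.7% had a lower log2 ratio. The authors' response class for it reads "Less".

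Intron 18 had a mean of 146 normalised reads in KH-CB19 and 297 in DMSO. It was 2.04-fold lower, and the authors' deposited table gave −1.03 on the log2 scale with an adjusted p of 0.00014. Of the detained introns 4.23% had a lower log2 ratio, and the response class reads "More"; the words are not explained in the sources used here. The log2 ratio of intron 15 thus exceeded that of intron 18 by 1.87.

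Intron 28 had a mean of 451 normalised reads in KH-CB19 and 334 in DMSO, which the authors' deposited table gives as 0.43 on the log2 scale with an adjusted p of 0.156. All of the 3 introns were well covered for their class: 98.6% of detained introns had a lower 2 h mean than intron 15, 95.9% than intron 28 and 90.4% than intron 18. RNA integrity numbers were 9.1 and 8.8 in the KH-CB19 2 h libraries and 9.3 in both DMSO 2 h libraries; their part in these values was not tested.

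The ratio of the neighbouring introns within a group is unchanged by any factor that scales both of them alike. Reads in intron 15 over reads in intron 18 came to 7.96 in KH-CB19 and 2.18 in DMSO at 2 h. At 0 h the ratio was 2.50 in KH-CB19 (95% exact binomial interval 2.28 to 2.76) and 2.47 in DMSO (2.27 to 2.68). The intervals take the means as averages of unscaled counts and cover counting error only, and none can be given for the scaled 2 h means. The KH-CB19 2 h group stood apart from the other 3, whose ratios lay between 2.18 and 2.50. The DMSO 2 h ratio of 2.18 lay below both 0 h intervals but has a counting error of its own. Whether those 3 ratios differ beyond counting error was not tested.

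**Figure D3:**
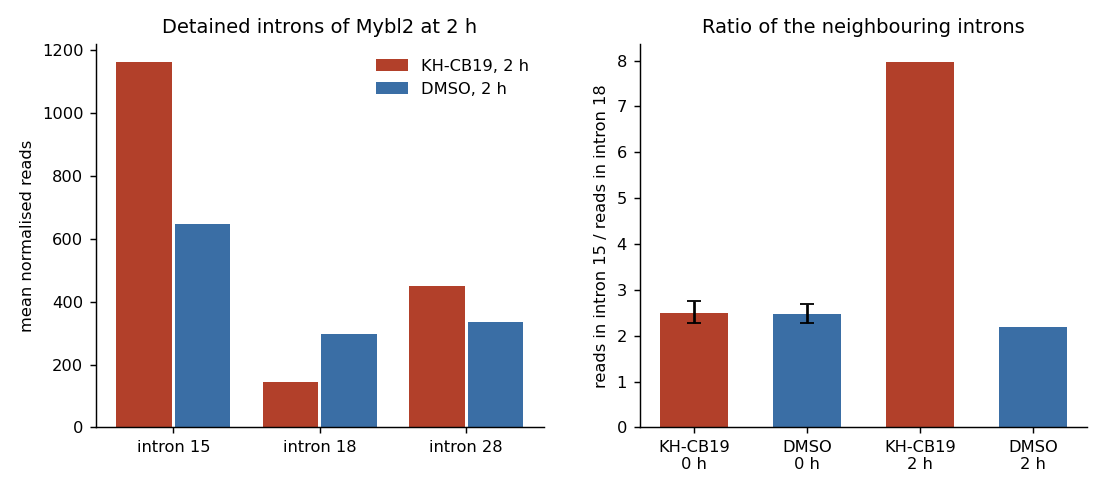
Left, the authors' mean normalised reads of the detained Mybl2 introns at 2 h in KH-CB19 (red) and DMSO (blue); right, reads in intron 15 over reads in intron 18 in each group, with 95% exact binomial intervals at 0 h only. Intron 15 is higher and intron 18 lower in KH-CB19 at 2 h, and the ratio is 7.96 in that group against 2.18 to 2.50 in the others.

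Both introns contributed to the change in ratio. On the log2 scale, which sets the change in ratio, intron 15 was at 0.84 and intron 18 at −1.03. In reads, intron 15 had 514 more normalised reads in KH-CB19 than in DMSO, and intron 18 fell by 151. Of the reads in the 3 detained introns, intron 18 held 8.29% in KH-CB19 and 23.2% in DMSO at 2 h, against 22.0% in KH-CB19 and 21.9% in DMSO at 0 h. Intron 15 held 66.1% in KH-CB19 and 50.7% in DMSO at 2 h. The share of intron 28 was 25.7% in KH-CB19 and 26.1% in DMSO. The sum of the 3 introns was 1.37-fold higher in KH-CB19, and that of introns 15 and 18 alone 1.38-fold higher. Reads of intron 28, which enter the shares and the first sum, can also come from spliced mRNA. Introns that were not classed as detained had no 2 h value, so the amount of Mybl2 transcript at 2 h was not measured.

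To see how common such a divergence was, the genes with at least 2 detained introns and a 2 h mean of at least 50 reads in each were taken, 377 in all. In 153 of them (40.6%) the introns had log2 ratios of both signs, and the median distance between the highest and the lowest ratio was 0.42. Mybl2 ranked 9th by that distance. Of the 377 genes, only Mybl2 had both a rise and a fall at an adjusted p below 0.05. Most genes could not have both, which takes at least 2 introns past the threshold. Over all detained introns of any coverage, 28 genes had at least 2 past it. At 0.1 there were 4 genes with both a rise and a fall, Mybl2, Utp18, Gcfc1 and Caprin1. Genes were also ranked by the smaller of the highest log2 ratio and minus the lowest one, which was 0.84 for Mybl2, at rank 2. These ranks describe a gene that was chosen for this pattern.

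The 5 genes most like Mybl2 by that measure were Utp18, Ppip5k2, Nup153, Caprin1 and Gcfc1, each compared over the 2 h contrast alone. Utp18, which encodes a protein of ribosome assembly, had 0.93 in intron 13 (adjusted p = 0.0545) and −0.87 in intron 12 (adjusted p = 0.0798) on the log2 scale of the authors' deposited table. In Ppip5k2, an inositol phosphate kinase gene, intron 30 rose by 1.22 and intron 34 had −0.66 (adjusted p = 3.64e-05 and 0.467) in the authors' deposited table. In Nup153, a nuclear pore gene, intron 23 fell by 1.35 and intron 27 had 0.59 (adjusted p = 0.000225 and 0.137) in the authors' deposited table. In Caprin1, which encodes an RNA-binding protein, intron 29 fell by 1.17 and intron 25 had 0.59 (adjusted p = 0.00353 and 0.0999) in the authors' deposited table. Gcfc1 had a log2 ratio of 0.60 in intron 7, which rose, and −0.59 in intron 8 (adjusted p = 0.0173 and 0.0821) in the authors' deposited table. In each of these 5 genes at most 1 direction passed at 0.05.

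**Figure D4:**
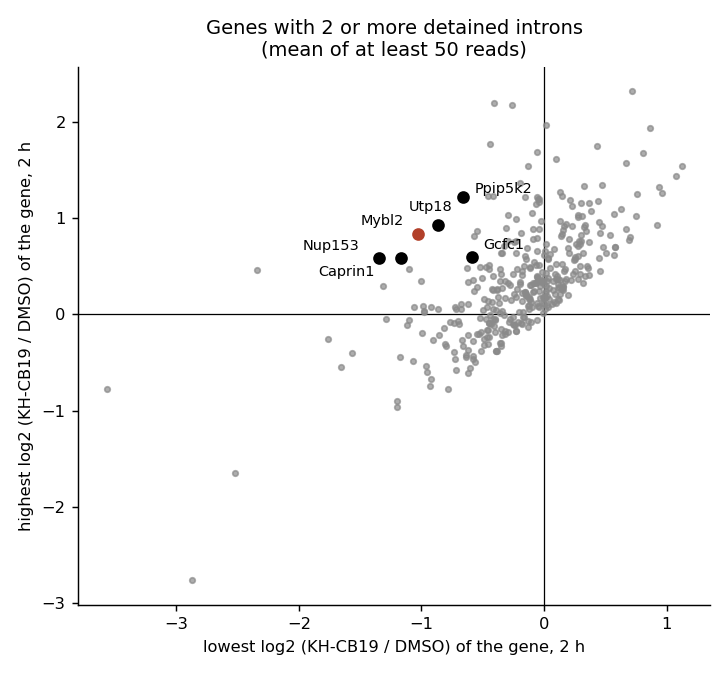
The highest against the lowest log2 ratio of KH-CB19 to DMSO at 2 h among the detained introns of a gene, for the 377 genes with at least 2 such introns of at least 50 mean reads. Mybl2 (red) and the 5 genes most like it (black) lie in the upper left, where a gene has introns of both signs; 153 genes lie in that quadrant.

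The same introns were compared by position, by a rule chosen after the values were seen. Detained introns next to each other in the detained set of a gene, with at most 1000 bp between them, made 206 pairs in 185 genes. The median difference between the log2 ratios of a pair was 0.33 and the 95th percentile was 1.18. The difference of 1.87 between introns 15 and 18 of Mybl2 ranked 2nd. The pair above it was Macf1, where the authors' deposited table has 0.47 for intron 92 and −2.34 for intron 94 on the log2 scale. Of the pairs, 15 had both introns past the threshold, and 1, that of Mybl2, had them past it with opposite signs. At 0.1 there were 3 pairs with opposite signs, those of Mybl2, Utp18 and Gcfc1.

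The detained introns in genes of proteins that B-Myb works with are read against the 5.47% that rose and 4.17% that fell among all detained introns. The list of the MuvB core, DREAM subunits and the Myb family had 24 genes, 21 of them listed in the table and 8 with a detained intron. Without Mybl2, 7 genes had 11 detained introns, of which 0 rose and 1 fell in the authors' deposited table, with a median log2 ratio of −0.19 against 0.00 over all detained introns. At an unadjusted p below 0.05, recovered as an upper bound from the DESeq values, 1 of the 11 was higher and 3 were lower in KH-CB19, where 11.1% of all detained introns were higher and 9.81% lower at that p. Intron 4 of Rbbp4, a histone-binding subunit of MuvB, had 76.0 normalised reads in KH-CB19 and 151 in DMSO and fell 1.99-fold (adjusted p = 0.00365 in the authors' deposited table). Intron 13 of Lin9, another subunit of that core, had 62.2 normalised reads in KH-CB19 and 93.5 in DMSO (adjusted p = 0.211 in the authors' deposited table). Intron 15 of E2f4, the E2F factor of DREAM, had 308 normalised reads in KH-CB19 and 221 in DMSO (adjusted p = 0.199 in the authors' deposited table).

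Mybl1, the gene of A-Myb and a relative of Mybl2, had 3 listed introns, of which 2 were detained. Intron 6 had 25.8 normalised reads in KH-CB19 and 45.6 in DMSO at 2 h, and intron 10 had 28.7 in KH-CB19 and 32.8 in DMSO. On the log2 scale the authors' deposited table gave −0.82 (adjusted p = 0.211) and −0.19 (adjusted p = 0.918), so both were below 0 and neither passed. Myb had no listed intron.

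Kinases and cofactors of B-Myb had 12 detained introns in 6 of 14 genes, with a median log2 ratio of −0.18. By the authors' deposited table, for which the processing notes name DESeq, 0 rose and 0 fell, against 5.47% and 4.17% of all detained introns, and the smallest adjusted p was 0.156. The unadjusted p, recovered as an upper bound, was below 0.05 for at least 1 of the 12, intron 13 of Cdk1, the mitotic kinase. At that p 11.1% of all detained introns were higher and 9.81% lower in KH-CB19. Cdk1 intron 13 had 105 normalised reads in KH-CB19 and 67.9 in DMSO, a log2 ratio of 0.63. The other detained intron of Cdk1 with at least 50 mean reads was at −0.34 on that scale and did not pass. Intron 16 of Ccne1, the gene of cyclin E1, had 1024 normalised reads in KH-CB19 and 828 in DMSO (adjusted p = 0.306 in the authors' deposited table). Lower in KH-CB19 were intron 34 of Parp1, with a log2 ratio of −0.68, and intron 31 of Cltc, with −0.43. Neither passed (adjusted p = 0.342 and 0.406 in the authors' deposited table).

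Genes of the G2 phase and mitosis, the class that B-Myb activates, had 56 detained introns in 40 of 74 genes. Of these 1 rose (1.79%), 3 fell (5.36%) and 52 did not pass in the authors' deposited table, against 5.47% and 4.17% of all detained introns, with a median log2 ratio of −0.14. At an unadjusted p below 0.05, recovered likewise, 5 were higher and 6 lower in KH-CB19, against 11.1% and 9.81% of all detained introns. Intron 17 of Ncapg, a condensin subunit, had 9.24 normalised reads in KH-CB19 and 51.0 in DMSO (adjusted p = 1.67e-05 in the authors' deposited table). The mitotic kinesin genes Kif20b and Kif23 fell in introns 31 and 20, to −0.96 and −0.71 on the log2 scale of the authors' deposited table. Intron 10 of Ckap2, which encodes a spindle protein, rose 1.91-fold (adjusted p = 0.00054 in the authors' deposited table).

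Genes of S phase had 59 detained introns in 38 of 58 genes, of which 3 rose (5.08%) and 0 fell in the authors' deposited table, against 5.47% and 4.17% of all detained introns, with a median log2 ratio of 0.22. At an unadjusted p below 0.05, recovered likewise, 6 were higher and 1 was lower in KH-CB19, against 11.1% and 9.81% of all detained introns. Intron 18 of Hells, a chromatin remodeller, had 230 normalised reads in KH-CB19 and 68.6 in DMSO, and intron 14 of Mcm5, a subunit of the replicative helicase, had 499 in KH-CB19 and 283 in DMSO. Intron 5 of Rpa2, which binds single-stranded DNA, rose with a log2 ratio of 0.89 (adjusted p = 0.0326 in the authors' deposited table). Whether these lists differ from each other or from all detained introns was not tested.

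The table lists only introns, so the level of a marker gene is not known from it. Of 12 markers of embryonic stem cells 11 had a listed intron, and of 14 markers of other cell types 1 did, Fn1. The stem cell markers had 5 detained introns in 4 genes, of which 1 rose, 0 fell and 4 did not pass. Among all detained introns 5.47% rose and 4.17% fell. Intron 16 of Tfcp2l1, a pluripotency factor gene, rose 1.71-fold (adjusted p = 0.0271), and intron 34 of Fn1, the fibronectin gene, fell 2.01-fold (adjusted p = 0.00763), in the authors' deposited table. The rise in Tfcp2l1 did not pass at a threshold of 0.01. The other 4 detained introns of Fn1 did not pass: introns 44, 45 and 49 had log2 ratios of 0.33, 0.33 and 0.35 and intron 37 had −0.29, and the median of the 5 was 0.33. Next to Mybl2 on the chromosome, Ift52 had 3 listed introns with at most 30.5 observed reads at 0 h and no 2 h value. Over the whole table, observed 0 h means summed to 1002850 reads in 18740 introns for KH-CB19 and 1286589 reads in 21568 introns for DMSO, and 2 h means summed to 392295 normalised reads in KH-CB19 and 369104 in DMSO.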

How the data were processed

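Reads were placed on mouse build mm9 and counted by the authors; per the submitters' processing notes DESeq was used beside Cufflinks 2.1.1, TopHat2 2.0.9, bedtools 2.17.0, Bowtie 1.0.0 and SAMtools 0.1.19, with settings not given in the sources used here. Per the file headers, the authors deposited observed and expected mean counts at 0 h, normalised mean reads at 2 h (a signal with decimals) for detained introns only, log2 ratios and adjusted p-values. All 0 h means were multiples of 0.5, as averages of 2 unscaled counts would be. Introns with few reads carry a word for low coverage in place of values, 3488 in KH-CB19 and 660 in DMSO at 0 h.

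The groups were KH-CB19 and DMSO at 0 h and 2 h, with 2 libraries each. The plan allowed a count model only if values per library were found. Only group means were, so no test was made and the authors' adjusted p-values, with a threshold of 0.05, are given as theirs. Computed here were ratios, reads per kb, ranks and list counts, with Python 3.11.15, pandas 2.3.3, NumPy 2.4.6 and SciPy 1.17.1; the ranking was tested on simulated data. Unadjusted p-values were recovered as upper bounds, taking the adjustment to be Benjamini-Hochberg over all 3454 detained introns. The table's start positions count from 0, and 1 was added. Introns were placed on GENCODE M21 (GRCm38) by distances, with no coordinates converted.

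Every Mybl2 intron is named, and per list up to 4 introns with the smallest adjusted p, plus the 5 genes most like Mybl2; not all that qualify are described. The gene, the lists and the rules were chosen with earlier results of these data known.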

Additional observations from a re-analysis of the deposited data

How the results depend on the processing

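No paired analysis was possible because the table holds 1 mean per group, and for the same reason leaving out each replicate was not run. The 2 h log2 ratios kept their sign with a pseudocount of 1, a pseudocount of 10, centring on the median and subtracting the centred 0 h difference. In that order they were 0.84, 0.83, 0.84 and 0.83 for intron 15, −1.02, −0.98, −1.02 and −1.01 for intron 18, and 0.43, 0.42, 0.43 and 0.51 for intron 28; no counting interval can be given for these scaled means. Mybl2 had 1 rise and 1 fall at thresholds of 0.01, 0.05 and 0.1. Among the 377 genes with 2 or more detained introns of at least 50 mean reads, it alone had both at 0.01 and 0.05. At 0.1 it was 1 of 4 genes with both, a comparison added after the data were seen. Over all detained introns, a threshold of 0.01 left 124 rises and 93 falls.

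Centring the 0 h ratios on the median of all introns moved intron 15 to 1.23 in KH-CB19 and 1.32 in DMSO, intron 18 to 0.35 and 0.47, and intron 28 to 2.14 and 2.31. It reversed intron 24 (−0.23 in KH-CB19 and −0.28 in DMSO), intron 25 (−0.14 and −0.12) and, in KH-CB19, intron 27 (−0.16). Depth limits introns 6 and 10 most, with 15 reads or fewer on average: adding 10 reads moved intron 6 to −3.43 in KH-CB19 and −3.66 in DMSO, and intron 10 to −3.51 in KH-CB19.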
